A study of Homo sapiens with 6 samples.

Results

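The miRNAs described here are 9 mature products of stress-induced hairpins, namely both arms of miR-34a, miR-34b and miR-34c, and hsa-miR-192-5p, hsa-miR-194-5p and hsa-miR-215-5p. They were chosen by name, and all 9 were among the 1596 mature miRNAs of the deposited count table. Small RNA had been sequenced from an established human melanoma cell line after 24 hours with RSL3 and IFN-γ (combined treatment group, 3 libraries) or with RSL3 alone (monotreatment group, 3 libraries). RSL3, an inhibitor of the lipid peroxide-clearing enzyme GPX4, was thus given in both groups, IFN-γ is a cytokine of activated T cells, and no untreated cells were analysed here. The sample labels name the line as A2058 and the study's methods name A375. Which line was sequenced was not settled here, and each is a single line.

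MicroRNAs are cut from hairpins, loaded into Argonaute and guided by their seed to mRNAs, which they repress. MiR-34a and the miR-34b and miR-34c cluster are induced by DNA damage and other stress, and repress cell cycle genes such as CDK4, CDK6, MYC and CCNE2 and the survival gene BCL2. MiR-192, miR-194 and miR-215 are abundant in gut, kidney and liver and are likewise reported to rise on DNA damage.

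The mature sequences are shown because they decide which products act on shared targets and which reads could be confused. They were taken from RefSeq (GRCh38.p14), which matched 8 of the 9 members, and capitals mark the seed, bases 2 to 8, by which a miRNA mainly recognises its targets.
miR-34a-5p: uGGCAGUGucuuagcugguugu
miR-34b-5p: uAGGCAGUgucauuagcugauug
miR-34a-3p: cAAUCAGCaaguauacugcccu
miR-34b-3p: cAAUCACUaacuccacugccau
miR-34c-3p: aAUCACUAaccacacggccagg
miR-192-5p: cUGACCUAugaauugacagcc
miR-215-5p: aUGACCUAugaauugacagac
miR-194-5p: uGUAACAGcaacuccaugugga

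The miR-34a-5p seed GGCAGUG and the miR-34b-5p seed AGGCAGU are the same stretch read with a shift of 1 base, and so are the miR-34b-3p and miR-34c-3p seeds. MiR-192-5p and miR-215-5p, both of 21 bases, share the seed UGACCUA and differ at 2 positions, C1A and C20A (miR-192-5p base, position from the 5′ end, miR-215-5p base). MiR-194-5p has another seed, and the same sequence is made from 2 hairpins, so its reads cannot be assigned to either.

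The 7 hairpins lie at 4 places of GRCh38. MIR34A lies at chr1:9151668-9151777 on the minus strand, within an exon of the non-coding gene MIR34AHG. MIR34B (chr11:111512938-111513021) and MIR34C (chr11:111513439-111513515) lie 417 bases apart on the plus strand, and GENCODE 29 holds no host gene for either. MIR192 (chr11:64891137-64891246) and MIR194-2 (chr11:64891355-64891439) lie 108 bases apart on the minus strand, in exonic sequence of the non-coding gene MIR194-2HG in GENCODE 29. MIR215 (chr1:220117853-220117962) and MIR194-1 (chr1:220118157-220118241) lie close together on the minus strand, opposite an intron of the isoleucyl-tRNA synthetase gene IARS2.

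Library totals ran from 4383940 to 5367150 reads in the combined treatment group and from 4897890 to 6513382 in the monotreatment group. The members took 0.0546% to 0.0888% of the reads of a library in the combined treatment group and 0.0624% to 0.0786% in the monotreatment group. The melanocyte miRNA miR-211-5p stood at 286 to 388 CPM in the combined treatment group and 270 to 318 CPM in the monotreatment group, with overlap. Its relative miR-204-5p stood at 162 to 174 CPM in the combined treatment group and 238 to 344 CPM in the monotreatment group, without overlap (−0.75 on the log2 scale, edgeR's adjusted p = 0.075), and 3 of 7 listed miRNAs of melanocytes and melanoma (miR-506-3p, miR-508-3p and miR-509-3p) had at most 17 reads in any library, with miR-508-3p at 0 reads in the combined treatment group. MiR-146a-5p of that list had 94060 to 147800 CPM in the combined treatment group and 85730 to 115800 CPM in the monotreatment group. These overlapped (0.20 on the log2 scale, edgeR's adjusted p = 0.667). Of the 4 tested miRNAs of that list 1 fell (miR-514a-3p) and 0 rose, where 2.24% of all tested miRNAs fell and 2.51% rose. Without overlap 2 were lower and 0 higher, where 14.8% and 15% of all tested miRNAs were. Of 9 listed miRNAs that are fragments of other RNAs, 6 were in the count table, and all 6 were tested. Among these 6, 3 rose (miR-1246, miR-1290 and miR-7977) and 0 fell, where 2.51% and 2.24% of all tested miRNAs did. With the replicate block 5 of them rose, where 39 of all 758 tested miRNAs rose. The median log2 fold change of these 6 was 1.47, beside −0.04 for all tested miRNAs. The 6 summed to 2215 to 6083 CPM in the combined treatment group and 1307 to 1719 CPM in the monotreatment group, without overlap. The part of these lists in the members' values was not tested. CPM are reads of a miRNA scaled to the same library size, here with TMM factors, which set most miRNAs to no change. Whether the replicates came from separate cultures is stated in none of the sources used here, and the p-values cover the spread of these libraries alone, which may be technical.

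Compared with the monotreatment group, hsa-miR-34c-5p fell in the combined treatment group, and none of the other tested members passed. The test was the two-sided quasi-likelihood test of edgeR on the counts, adjusted by Benjamini-Hochberg over the 758 miRNAs that passed its filter on low counts, and rose and fell are used of an adjusted p under 0.05. Of the 9 members 7 passed the filter, and 1 of these fell, where 2.24% of all tested miRNAs fell, and 0 rose, where 2.51% rose (2 members had an unadjusted p under 0.05, both lower, and DESeq2 and limma called 0 members as higher). With the replicate number as a block again 1 member fell, where 5.67% of all tested miRNAs fell. The median log2 fold change of the 7 tested members was −0.46, beside −0.04 for all tested miRNAs. Groups did not overlap in 2 of the 7 that were lower, where 14.8% of all tested miRNAs were lower without overlap, and in 1 that was higher, where 15% were.

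**Figure D1:**
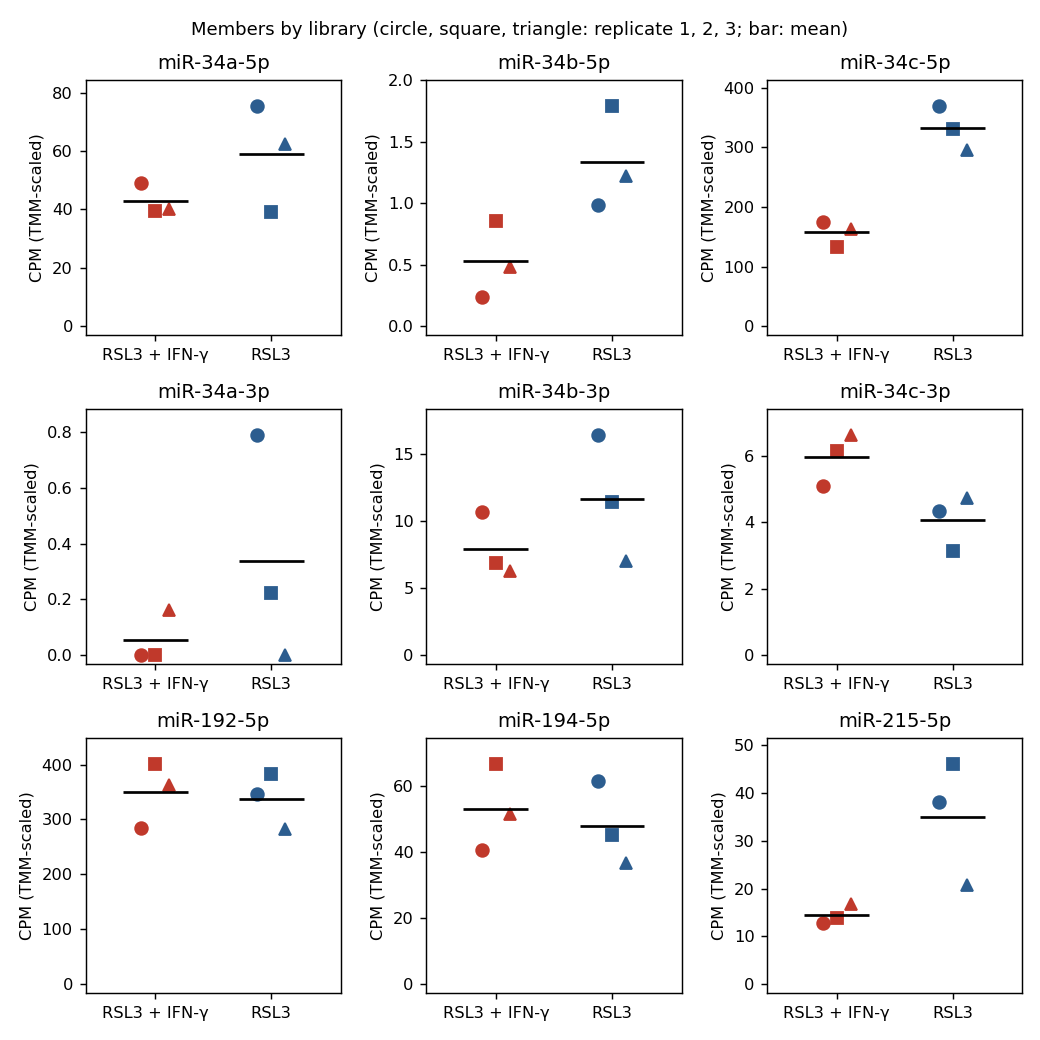
TMM-scaled CPM (y axis, from 0 in each panel) of the 9 members in each library, with RSL3 + IFN-γ in red, RSL3 in blue, a marker for each replicate number and a bar at the mean of 3 libraries. The groups are apart in miR-34c-5p (133 to 176 against 296 to 369 CPM) and miR-215-5p (12.8 to 16.8 against 20.8 to 46.1 CPM), and interleaved in miR-192-5p and miR-194-5p.

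MiR-34c-5p is the guide strand of MIR34C, a hairpin known mainly from lung, testis and other tissues with ciliated cells. It had 176, 133 and 163 CPM in the combined treatment libraries (726, 781 and 1010 reads), against 369, 332 and 296 CPM in the monotreatment libraries (1871, 1483 and 1692 reads). Each combined treatment library lay below each monotreatment library. The means were 157 ± 21.6 and 332 ± 36.5 CPM (SD, n = 3 each), and the log2 fold change was −1.08 (standard error 0.225, 95% interval −1.58 to −0.58, edgeR's adjusted p = 0.0315). The call was lost with library totals in place of TMM, which shift the median of all tested miRNAs to 0.33 (log2 fold change −0.73, adjusted p = 0.0839 from edgeR). It was also lost without RSL3 replicate 1 (−0.99, adjusted p = 0.174 from edgeR), without replicate 2 of the combined treatment (−0.98, adjusted p = 0.108 from edgeR) and without its replicate 3 (−1.12, adjusted p = 0.092 from edgeR).

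MiR-34a-5p, the product of MIR34A and the miR-34 form found in most tissues, had 49.1, 39.5 and 40.0 CPM in the combined treatment group, against 75.4, 39.1 and 62.3 CPM in the monotreatment group. RSL3 replicate 2 lay at the level of the combined treatment libraries, so that the groups overlapped. Its log2 fold change was −0.46 (95% interval −1.09 to 0.17, adjusted p = 0.322 from edgeR), an interval that includes both no change and the fold change of miR-34c-5p. MiR-34b-3p, the more abundant arm of MIR34B, had 10.6, 6.83 and 6.30 CPM in the combined treatment group, against 16.4, 11.4 and 7.0 CPM in the monotreatment group, again with overlap, at a log2 fold change of −0.56 (95% interval −1.42 to 0.31, adjusted p = 0.39 from edgeR). MiR-34b-5p did not pass the filter on low counts, with 1, 5 and 3 reads in the combined treatment group (0.242 to 0.854 CPM) and 5, 8 and 7 in the monotreatment group (0.987 to 1.79 CPM).

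Together the 5p arms of the miR-34 family had 201 ± 25.6 CPM in the combined treatment group and 393 ± 46.3 CPM in the monotreatment group (SD, n = 3 each). MiR-34c-5p made up 76.8% to 80.1% of these 5p reads in the combined treatment group and 82.3% to 89.0% in the monotreatment group. It thus held most of the family's 5p reads in all 6 libraries.

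**Figure D2:**
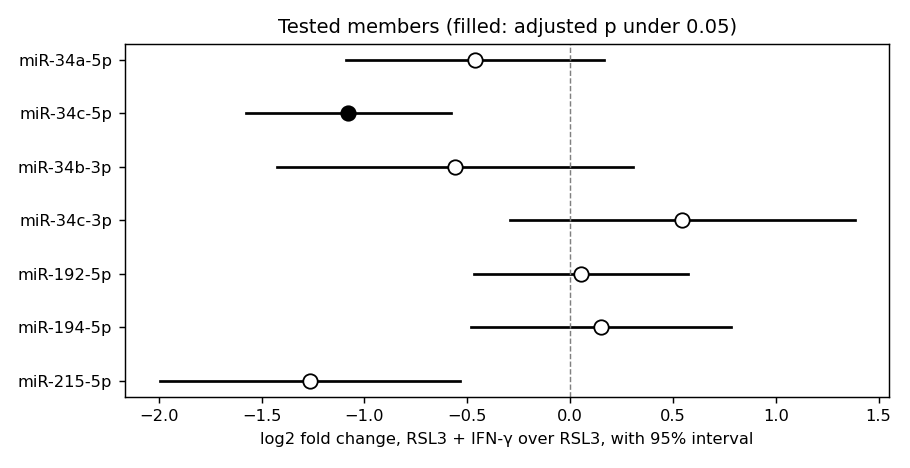
Log2 fold change (x axis, RSL3 + IFN-γ over RSL3) of the 7 tested members with 95% intervals from edgeR's quasi-likelihood fit, filled where the adjusted p was under 0.05. Only miR-34c-5p (−1.08) is filled, miR-215-5p (−1.27) has an interval below 0 and an adjusted p of 0.0528, and the other 5 intervals include 0.

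MiR-215-5p, the seed partner of miR-192-5p, had the most negative log2 fold change of the tested members without passing the test. It had 12.8, 13.8 and 16.8 CPM in the combined treatment group (53, 81 and 104 reads), against 38.1, 46.1 and 20.8 CPM in the monotreatment group (193, 206 and 119 reads). The groups did not overlap, and RSL3 replicate 3 lay nearest to the combined treatment libraries. The log2 fold change was −1.27 (standard error 0.330, 95% interval −2.0 to −0.54, adjusted p = 0.0528 from edgeR). Over 17 alternatives the sign was negative each time, and the test was passed in 5, among them DESeq2 (adjusted p = 0.0111) and the fit without RSL3 replicate 3 (−1.56, edgeR's adjusted p = 0.0209). It has the lowest GC content of the 8 members with a sequence, 38.1%, and with the trend of each library on GC content removed its log2 fold change was −0.87 (adjusted p = 0.171 from edgeR).

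MiR-192-5p, the most abundant member, had 285, 401 and 363 CPM in the combined treatment group, against 347, 382 and 283 CPM in the monotreatment group. The groups lay across each other, at a log2 fold change of 0.05 (95% interval −0.47 to 0.57, adjusted p = 0.9 from edgeR). MiR-194-5p had 40.6, 66.6 and 51.3 CPM in the combined treatment group, against 61.4, 45.2 and 36.6 CPM in the monotreatment group, at a log2 fold change of 0.15 (95% interval −0.48 to 0.78, adjusted p = 0.771 from edgeR). For both the interval leaves out a fall as large as the estimate for miR-34c-5p. The direction of miR-192-5p turned with upper-quartile factors, and that of both without replicate 2 of the combined treatment or without RSL3 replicate 3.

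Replicate 2 of the combined treatment, the library with the highest miR-192-5p and miR-194-5p, was also the highest in the summed markers of epithelium, liver and gut and of blood. In that library 1 miRNA made up most of each sum. The summed level of 7 miRNAs of epithelium, liver and gut ran from 150 to 249 CPM in the combined treatment group and from 105 to 218 CPM in the monotreatment group. That of 5 miRNAs of blood cells ran from 84.4 to 332 CPM in the combined treatment group and from 98.9 to 166 CPM in the monotreatment group. In the first it was miR-122-5p (liver), which had 79.8, 174 and 68.3 CPM in the combined treatment group and 31.2, 90.4 and 29.1 CPM in the monotreatment group (log2 fold change 1.1, edgeR's adjusted p = 0.18, or 0.0196 with the replicate block). In the blood list it was miR-451a, with 74.7, 318 and 157 CPM in the combined treatment group and 93.1, 88.4 and 158 CPM in the monotreatment group. The epithelial markers did not pass. Their log2 fold changes were −0.84 for miR-200c-3p, −0.78 for miR-200b-3p, −0.35 for miR-200a-3p and 0.13 for miR-375-3p. Replicate 2 of the combined treatment was the lowest library for miR-200c-3p (5.98 CPM) and miR-200b-3p (14.3 CPM). It was not the lowest for miR-200a-3p (20.2 CPM, beside 15.7 CPM in replicate 1), and it was the highest for miR-375-3p (32.6 CPM). Of the 5 and 3 tested markers of the lists, 0 were called without the block (2 and 0 had an unadjusted p under 0.05). None of these markers was at 0 in all libraries, and their part in the levels of miR-192-5p and miR-194-5p was not tested.

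**Figure D3:**
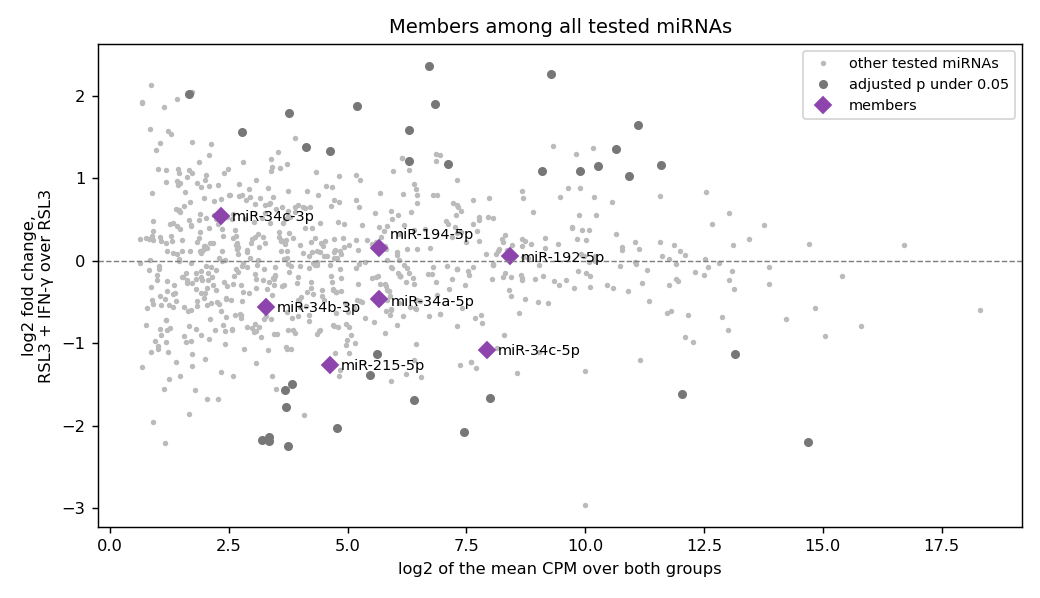
Log2 fold change (y axis, RSL3 + IFN-γ over RSL3) against the log2 of the mean CPM (x axis) for 758 tested miRNAs, with the 7 tested members as diamonds and miRNAs with an adjusted p under 0.05 in dark grey. MiR-34c-5p and miR-215-5p lie on the lower side, miR-192-5p and miR-194-5p near 0, and miR-34c-3p above it.

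By mean CPM miR-192-5p came first and miR-34c-5p next in both groups, though in the monotreatment group the means were close (337 and 332 CPM). In that group these overlapped (283 to 382 CPM for miR-192-5p, 296 to 369 CPM for miR-34c-5p). There miR-34c-5p had more reads than miR-192-5p in replicate 1 (1871 against 1758) and replicate 3 (1692 against 1616). In the combined treatment group each library of miR-34c-5p lay below each of miR-192-5p. MiR-194-5p and miR-34a-5p followed, with overlap in both groups, and among all 1596 miRNAs they ranked 280 and 278 by mean CPM, beside 127 for miR-192-5p and 148 for miR-34c-5p. Ligation and amplification favour some small RNAs over others, so the order is one of read levels.

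The arms of each miR-34 hairpin were compared within libraries, since a ratio of arms does not depend on scaling. Which arm is retained in Argonaute is set largely by the stability of the duplex ends. MIR34A gave almost only its 5p arm, MIR34B mainly its 3p arm and MIR34C mainly its 5p arm, in all 6 libraries.

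MiR-34c-3p, the passenger strand of MIR34C, had 5.08, 6.15 and 6.62 CPM in the combined treatment group (21, 36 and 41 reads), against 4.34, 3.13 and 4.73 CPM in the monotreatment group (22, 14 and 27 reads). The groups did not overlap, and the log2 fold change of 0.55 did not pass (95% interval −0.29 to 1.38, adjusted p = 0.387 from edgeR). The 3p arm thus lay on the other side of 0 from its 5p arm. Its share of the reads of the hairpin was 2.81%, 4.41% and 3.90% in the combined treatment libraries, against 1.16%, 0.935% and 1.57% in the monotreatment libraries. Exact (Clopper-Pearson) 95% intervals of these shares lay between 1.75% and 6.05% in the combined treatment group and between 0.512% and 2.28% in the monotreatment group, and cover counting error only.

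In the combined treatment group 34.6, 21.7 and 24.6 reads of miR-34c-5p were counted per read of miR-34c-3p, against 85.0, 106 and 62.7 in the monotreatment group. The log2 ratio of 3p to 5p reads was −4.70 ± 0.339 in the combined treatment group and −6.33 ± 0.369 in the monotreatment group (SD, n = 3 each), a difference of 1.63 (standard error 0.372, 95% interval 0.78 to 2.48, limma's adjusted p = 0.103 over the 181 hairpins whose arms each averaged 10 reads or more). By p-value the hairpin ranked 2 of the 181, and limma called 0%, or 0 of them, with 35 at an unadjusted p under 0.05. EdgeR on the arm counts, with a term for each library, called 6 hairpins, or 3.31%, miR-34c among them (log2 difference 1.63, adjusted p = 0.0298). Groups did not overlap on the higher side in 13.8% of the tested hairpins.

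**Figure D4:**
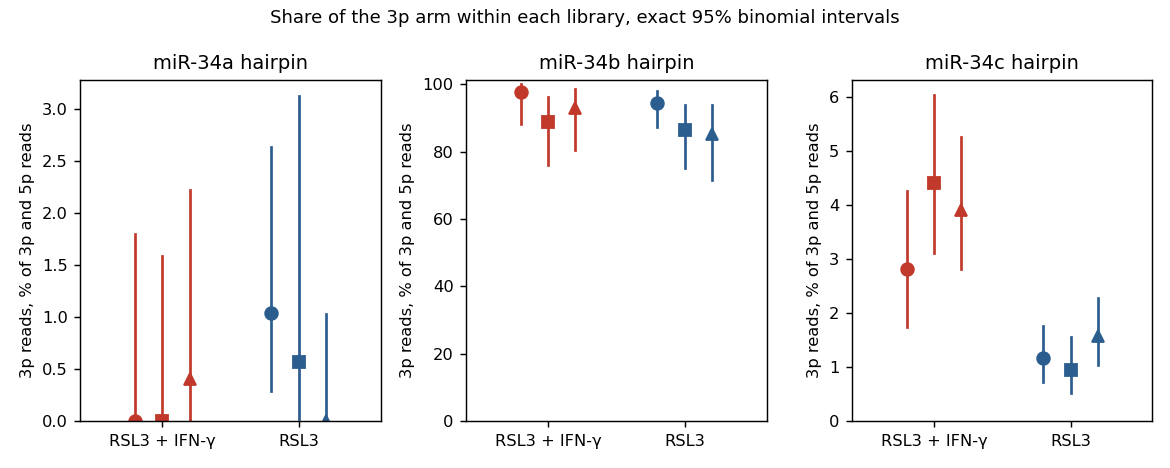
Share of 3p reads among the 3p and 5p reads of the miR-34a, miR-34b and miR-34c hairpins (y axis, percent, with its own scale in each panel) in each library, with exact 95% binomial intervals and a marker for each replicate number. The miR-34c share lies between 2.81% and 4.41% with RSL3 + IFN-γ and between 0.935% and 1.57% with RSL3. Its interval in RSL3 + IFN-γ replicate 1 starts at 1.75% and overlaps that of RSL3 replicate 3, which ends at 2.28%. The intervals of miR-34a and miR-34b overlap across groups as well.

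MiR-34a-3p, the passenger strand of MIR34A, was counted 0, 0 and 1 times in the combined treatment libraries, beside 203, 231 and 248 reads of miR-34a-5p, against 4, 1 and 0 times in the monotreatment libraries, beside 382, 175 and 356 reads. By a floor of 3 counts, 0 of 203 reads allows a share of up to 1.48%, 0 of 231 up to 1.3% and 0 of 356 up to 0.843%, and the exact two-sided 95% intervals, which are wider, end at 1.8%, 1.58% and 1.03%. Summed over libraries, the 3p share of MIR34A was 0.146% (exact 95% interval 0.00371% to 0.813%) in the combined treatment group and 0.545% (0.177% to 1.27%) in the monotreatment group. These intervals pool the reads of 3 libraries, cover counting error only and overlap. The share was not higher in the combined treatment group, and with 6 reads of the 3p arm in all the hairpin was not tested. For MIR34B the 3p share was 97.8%, 88.9% and 92.9% in the combined treatment group and 94.3%, 86.4% and 85.1% in the monotreatment group, with overlap and with no more than 8 reads of the 5p arm in a library.

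MiR-194-3p, the 3p arm made from MIR194-2, had 8 reads in each group (0, 8 and 0 in the combined treatment libraries, 1, 2 and 5 in the monotreatment libraries). Of 3 listed other arms of the member hairpins only 1, miR-194-3p, was in the count table, and the 3p arms of MIR192 and MIR215 were not analysed.

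Ratios of members within each library gave the second scaling-free view, and 5 were compared. MiR-215-5p over miR-192-5p, the seed partners, was 0.0450, 0.0345 and 0.0462 in the combined treatment libraries, against 0.110, 0.121 and 0.0736 in the monotreatment libraries. MiR-215-5p made up 4.30%, 3.34% and 4.42% of the reads of the 2 seed partners in the combined treatment group and 9.89%, 10.8% and 6.86% in the monotreatment group. The groups did not overlap, and the mean log2 ratio differed by −1.25. How reads that match both partners were counted is not stated, so the split between them is uncertain. While miR-215-5p lay lower, the summed level of both partners was 364 ± 60.2 CPM in the combined treatment group and 372 ± 63.2 CPM in the monotreatment group (SD, n = 3 each), with overlap.

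MiR-215-5p over miR-194-5p was 0.316, 0.208 and 0.327 in the combined treatment group, against 0.621, 1.02 and 0.569 in the monotreatment group, also without overlap (difference of mean log2 ratios −1.35). MiR-194-5p over miR-192-5p, by contrast, overlapped, at 0.143, 0.166 and 0.141 in the combined treatment group and 0.177, 0.118 and 0.129 in the monotreatment group (difference 0.10). Per read of miR-194-5p, 6.02 to 7.07 reads of miR-192-5p were counted in the combined treatment group and 5.65 to 8.46 in the monotreatment group. The ratio is not one of a single cluster, since miR-194-5p comes from both hairpins.

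In the miR-34 family, miR-34c-5p over miR-34a-5p was 3.58, 3.38 and 4.07 in the combined treatment group, against 4.90, 8.47 and 4.75 in the monotreatment group, without overlap (difference of mean log2 ratios −0.67, or −0.40 without RSL3 replicate 2). MiR-34b-3p over miR-34c-5p, products of 1 cluster, overlapped, at 0.0606, 0.0512 and 0.0386 in the combined treatment group and 0.0444, 0.0344 and 0.0236 in the monotreatment group (difference 0.58). Taken by replicate number, it was higher in the combined treatment library of each of the 3 pairs, by 0.45, 0.57 and 0.71 on the log2 scale, and the exact paired permutation test gave p = 0.25, the smallest that 3 pairs allow. The 3 ratios without overlap had p = 0.1 from the two-sided exact permutation test, the smallest that 3 against 3 libraries allow (0.167 adjusted over the 5 ratios), and miR-34b-3p over miR-34c-5p and miR-194-5p over miR-192-5p had p = 0.2 and p = 0.6 from the same exact test (0.25 and 0.6 adjusted).

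**Figure D5:**
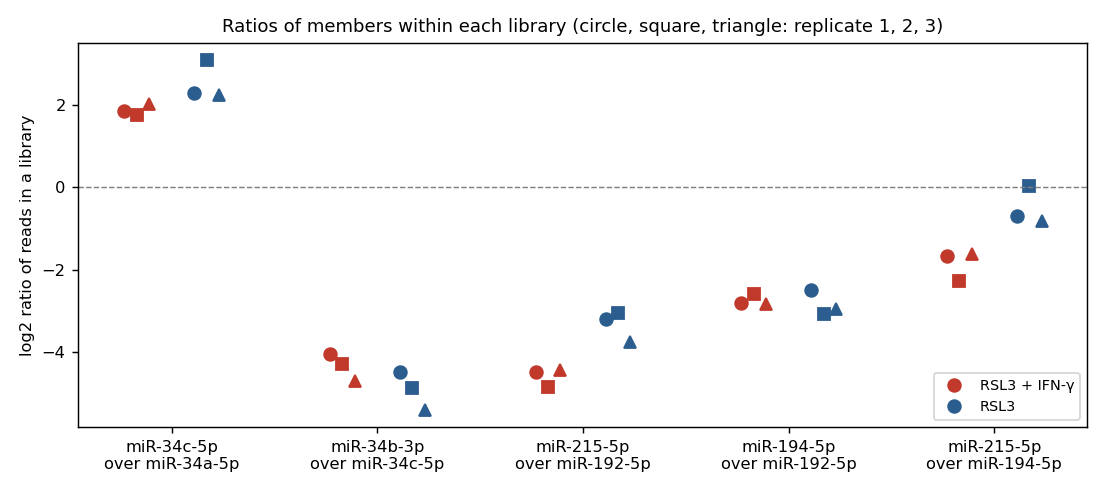
Log2 ratio of the reads of 2 members in the same library (y axis) for 5 ratios, with RSL3 + IFN-γ in red left of RSL3 in blue and a marker for each replicate number. Both ratios with miR-215-5p on top lie lower with RSL3 + IFN-γ in all libraries, by 1.25 and 1.35 on average, whereas miR-194-5p over miR-192-5p overlaps.

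Of the other miRNAs of the table, 4 share a seed with a member, namely miR-449a and miR-449b-5p with miR-34a-5p, and miR-449c-5p and miR-2682-5p with miR-34b-5p. The miR-449 hairpins are best known from cells that carry motile cilia.
miR-449a: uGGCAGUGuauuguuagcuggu
miR-449b-5p: aGGCAGUGuauuguuagcuggc
miR-449c-5p: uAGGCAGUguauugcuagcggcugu
miR-2682-5p: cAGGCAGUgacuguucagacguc

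MiR-449a and miR-449b-5p had at most 18 reads in a library and were not tested. MiR-449c-5p had 9.18, 9.40 and 5.49 CPM in the combined treatment group, against 17.2, 10.7 and 16.3 CPM in the monotreatment group, without overlap (log2 fold change −0.88, adjusted p = 0.143 from edgeR). MiR-2682-5p had 30.9, 73.0 and 34.2 CPM in the combined treatment group, against 29.2, 29.3 and 29.6 CPM in the monotreatment group, also without overlap and higher (0.65, adjusted p = 0.255 from edgeR). The 4 relatives summed to 56.8 ± 26.0 CPM in the combined treatment group and 46.7 ± 4.78 CPM in the monotreatment group (SD, n = 3 each), below the miR-34 5p arms in every library.

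As a description, the miRNAs whose log2 CPM followed miR-34c-5p most closely over the 6 libraries, among the 472 miRNAs that averaged 10 CPM or more, were miR-548f-3p (Pearson r = 0.996), miR-135b-3p (0.989) and miR-548bc (0.98). For miR-215-5p they were miR-518f-5p (0.96), miR-218-5p (0.941) and miR-522-3p (0.933). All 6 had negative log2 fold changes, between −2.24 and −0.48, and the points share the difference between groups, the depth and the scaling of these libraries.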

How the data were processed

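Counts of mature miRNAs in 6 small RNA libraries, 3 of RSL3 combined with IFN-γ and 3 of RSL3 alone, were grouped by the treatment in the sample titles. The authors deposited raw read counts per mature miRNA, and a normalized signal that the authors made by dividing each library's counts by 1 total, which was not tested here. The deposited log2 fold changes, fold changes and p-values of the authors' own comparison were not used. Per the submitters' notes the tools were bcl2fastq, edgeR and Bowtie 1.1.1, and the build was GRCh38. The treatment of reads that match more than 1 miRNA is not given in the sources, and counts of near-identical products such as miR-192-5p and miR-215-5p are uncertain.

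The test on counts was the quasi-likelihood test of edgeR 4.0.16 under R 4.3.3, with TMM factors and filterByExpr (min.count 10, min.total.count 15). Standard errors are the log2 fold change over the root of F. Log2 ratios of arms, with 0.5 reads added to both, were fitted with limma 3.58.1. DESeq2 1.42.0 was an alternative. The steps were tested on simulated data. Hairpin places were checked against GENCODE 29, which places all 7 alike.

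Members, lists and tests were chosen with earlier results of these data known. The miRNAs named are the members, their other arms, miRNAs with a member's seed and markers of melanocytes, melanoma and other cells. Also named are fragments of other RNAs and the 3 closest to miR-34c-5p and to miR-215-5p in pattern. Lists of other miRNAs are not reported here. Both groups use the same replicate numbers. Across miRNAs the deviations from the group means correlated between libraries of the same number at 0.227, 0.217 and 0.207. Such libraries were taken as pairs only in the fits with the replicate block and in the paired permutation test. The other tests and their p-values, those of the main fits among them, left the pairing out. The labels do not say what the numbers stand for. No pair of replicates was alike within counting noise.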

Additional observations from a re-analysis of the deposited data

How the results depend on the processing

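The fall of miR-34c-5p kept its direction in all 17 alternatives (log2 fold change −1.19 to −0.73) and passed the test in 13, counting 2 with the GC trend removed that left its own value uncorrected. In place of 1 member that fell with all libraries and TMM, 0 fell with library totals only, and 2 fell (miR-34c-5p and miR-215-5p) with upper-quartile factors, with no filter on low counts, with DESeq2 and among miRNAs averaging 10 CPM or more. Leaving out 1 library at a time gave 0 to 2. Over the 758 tested miRNAs the median change (log2) was 0.33 with library totals and −0.13 with upper-quartile factors, in place of −0.04. With the replicate block the log2 fold change of miR-34c-5p was −1.08 and that of miR-215-5p −1.21, and the block changed no call of a member. Counts of all called miRNAs moved from 36 to 82 with the block, 71 with library totals only, 106 with no filter, 96 with DESeq2, 20 with the GC trend removed (23 with the block) and 0 (without RSL3 replicate 1) to 95 (without replicate 1 of the combined treatment).

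The log2 fold change of miR-192-5p was −0.067 with upper-quartile factors and −0.088 to 0.17 with 1 library left out, and that of miR-194-5p −0.061 to 0.38 with 1 library left out. Both were largest with library totals only, at 0.45 for miR-192-5p and 0.56 for miR-194-5p. With the GC trend removed they were 0.12 and 0.30. Neither passed the test in any of the 17 alternatives. The cause was not tested. The miR-34c arm ratio passed with edgeR on arm counts (1.63) and did not pass with limma at 2 reads added, a mean of at least 3 reads, the block or any library left out. At a mean of at least 50 reads the hairpin was not tested. The 5 ratios within libraries moved by less than 1 SD, pooled over both groups, in the alternatives run. That of miR-194-5p over miR-192-5p turned to −0.016 without RSL3 replicate 2 and was 0.27 without RSL3 replicate 1. GC content came from the mature sequences of 1425 of the 1596 miRNAs, without miR-34c-5p, so the GC alternative says nothing of that miRNA's GC content. Depth limits miR-34a-3p and miR-34b-5p, with 6 and 29 reads in all.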
